A study of Mus musculus with 10 samples.

Results

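Microglia are the resident macrophages of the brain, and 35 genes that mark them were followed in mixed neuron-glia cultures of mouse cortex, with and without depolarization by KCl. The members were chosen by name, as genes known for their expression in microglia, and each was represented by the Ensembl transcript with the highest mean RNAseq count. Of the 35 members, 31 had counts, among 13189 genes with counts in all. The remaining 4 (Tyrobp, Cd68, Laptm5 and Siglech) have no measurement here, and Cd68, Laptm5 and Siglech enter only the promoter counts. Cortical cells of P0 FVB pups of both sexes had been kept for 7 days in vitro. The untreated group consisted of cultures 1, 2 and 3, and the KCl group of cultures 4 and 5, to which KCl had been added to 55 mM for 3 h. All cultures received cycloheximide shortly before lysis, and each lysate was divided between RNAseq, which samples total RNA, and ribosome footprinting (RF), which samples the RNA fragments that ribosomes protect. Translational efficiency (TE) was the RF level on the coding sequence (CDS) over the RNAseq level of the same culture. Another KCl culture had been removed by the authors for its small library. Nothing in the labels states that the cultures of a group came from separate litters, so p-values measure the spread between these cultures.

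Microglia enter the brain early in development, depend on the receptor Csf1r for survival, and patrol the tissue with processes guided by receptors for chemokines and nucleotides. They clear dying cells and synapses, tag targets with the complement protein C1q, and digest what they take up in lysosomes. Their identity rests on transcription factors such as PU.1 (the product of Spi1) and Irf8, and several of the genes used to name them are lowered when the cells are activated or kept in culture.

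RNAseq libraries held 3056286 to 3629959 reads and RF libraries 1463654 to 7719915, with untreated culture 3 and KCl culture 4 the shallowest in RF. Levels were expressed as normalised RPKM, reads per kilobase of RNA and scaled to library size by TMM, over the whole transcript for RNAseq and over the CDS for RF. A strict filter (at least 10 RPKM in both assays of the same culture, in at least 2 cultures) kept 7262 transcripts and 11 members. The wider filterByExpr rule of edgeR kept 15652 transcripts and 26 members, and left out P2ry12, Ly86, Gpr34, Apbb1ip and Slc2a5. Of the 11 members, 9 passed the strict filter in all 5 cultures; Cd14 passed it in 3 untreated cultures and 1 KCl culture, and Fcgr3 only through the 2 KCl cultures, which favours a higher value there. KCl changes are given below from the strict set for its 11 members and from the wider set for the other 15, with the number of transcripts tested beside each first use.

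In the untreated cultures the microglia genes differed widely in level and in TE. Fcer1g, the signalling chain of Fc receptors, had the highest RNAseq level of all members at 116 ± 7.48 normalised RPKM (SD, n = 3). Lgmn, a lysosomal endopeptidase, had the highest RF level at 287 ± 2.16. The median TE was 1.84 over the 11 members of the strict set and 1.82 over its 7262 transcripts. Over the 26 members of the wider set the median TE was 2.32, beside 2.08 over its 15652 transcripts. The members' TE lay close to the middle of all transcripts as a group, while single members lay far from it.

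**Figure D1:**
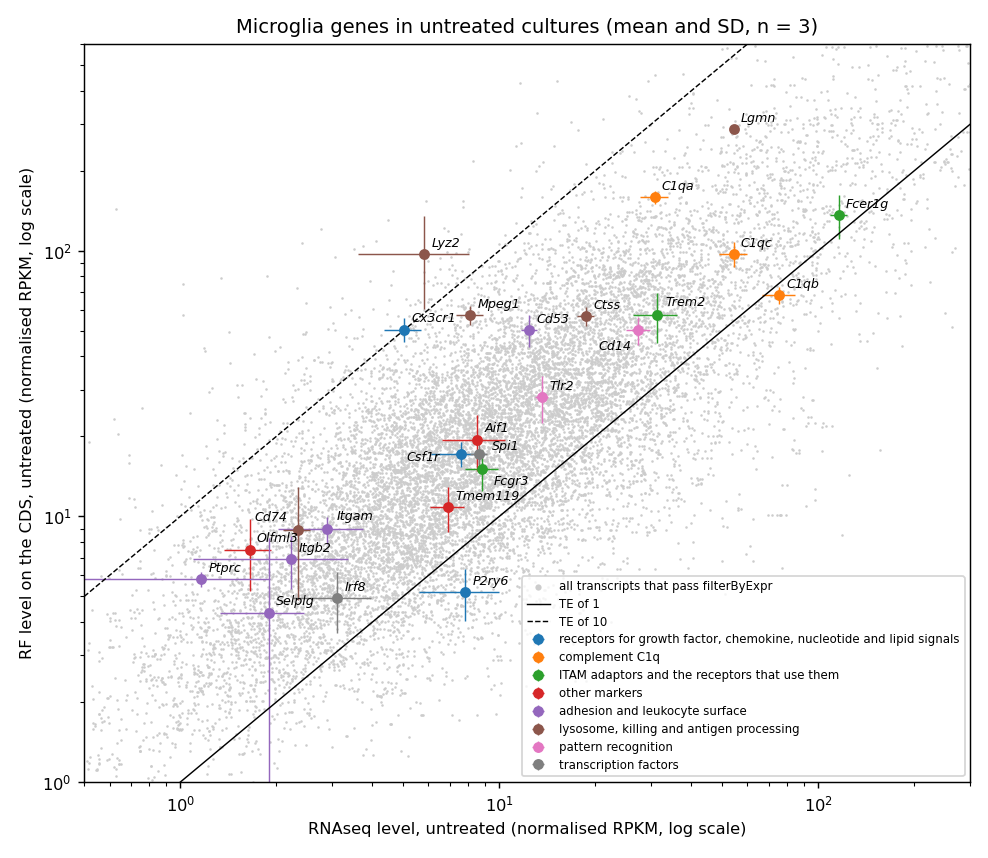
RNAseq level (x axis) against RF level on the CDS (y axis), both as normalised RPKM on log scales, for the 26 members that passed filterByExpr (coloured by role, mean and SD of 3 untreated cultures) over all transcripts that passed (grey). Lyz2 lies above and Cx3cr1 on the line for a TE of 10, and C1qb and P2ry6 lie below the line for a TE of 1.

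The sequences around the start codon are shown for the 3 C1q subunits and for members toward both ends of the TE range, because the start codon and its neighbours are where a scanning ribosome begins. Each window holds 12 bases of the 5′UTR, the start codon in capitals and 12 bases of the CDS, from the GENCODE transcript on GRCm38.
C1qa: ggcagggacaccATGgagacctctcag
C1qb: gaggctgagctgATGaagacacagtgg
C1qc: tacaccctcaggATGgtcgttggaccc
Lyz2: cctccagtcaccATGaagactctcctg
Cx3cr1: caggacctcaccATGtccacctccttc
Mpeg1: tagggctggtatATGgccaaaaccatc
Ptprc: tgatctccagatATGaccatgggtttg
Lgmn: acggggtgcagaATGacctggagagtg
Fcer1g: agcgcacccaggATGatctcagccgtg
P2ry6: tgacaggcagttATGgagcaggacaat
The start codons lie at chr4:136897835-136897837 for C1qa, chr4:136882305-136882307 for C1qb and chr4:136892560-136892562 for C1qc, all on the minus strand and each in a gene of 3 exons. A favourable (Kozak) context has a purine 3 bases before the start codon and a G directly after it. The C1qa, C1qc and P2ry6 windows hold both features, those of Lyz2, Cx3cr1, Mpeg1, Ptprc, Lgmn and Fcer1g hold 1 of them, and the C1qb window holds neither. Among the 26 members, 3 held neither feature (C1qb, Fcgr3 and Spi1; median TE 1.70), 13 held 1 (median 3.41) and 10 held both (median 2.07). Across the transcripts of the strict set the medians were 1.68, 1.80 and 1.88; these are 2 different sets of transcripts, and no difference between them was tested.

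C1q, the recognition protein of the classical complement pathway, is built from the chains of C1qa, C1qb and C1qc in equal number, and the 3 genes lie side by side on chromosome 4. Their RNA and footprint levels ran in opposite orders. C1qa had RNAseq levels of 27.9, 34.1 and 30.1 normalised RPKM in untreated cultures 1, 2 and 3 and of 23.8 and 31.4 in KCl cultures 4 and 5. C1qb had 77.0, 65.8 and 83.3 and then 63.1 and 60.3. C1qc had 48.0, 58.0 and 56.8 and then 60.2 and 57.8. C1qa was thus the lowest and C1qb the highest of the 3 in RNAseq in every culture.

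In RF the order turned over. C1qa had 159, 150.3 and 168 normalised RPKM on the CDS in untreated cultures and 198 and 206 after KCl. C1qb had 73.4, 63.4 and 68.0 and then 57.2 and 81.2, and C1qc had 98.8, 86.5 and 107 and then 108 and 154. C1qa was the highest and C1qb the lowest in RF in all 5 cultures.

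The TE of the subunits followed: it was 5.23 ± 0.717 for C1qa, 1.81 ± 0.289 for C1qc and 0.910 ± 0.0822 for C1qb (SD, n = 3 untreated cultures). Among the 7262 transcripts these values stood at percentiles 94.5, 49.7 and 14.2. Taken within a culture, where library scaling cancels, the ratio of C1qb to C1qa was 1.92 to 2.77 in RNAseq and 0.289 to 0.462 in RF. The TE of C1qb was 0.109 to 0.219 of that of C1qa, below 1 in 5 of 5 cultures (two-sided exact sign-flip permutation test on log2 ratios, n = 5, p = 0.0625, also after adjustment over the 3 pairs, which is the smallest p that 5 cultures allow). With RNAseq reads restricted to the CDS the TE ratio was 0.0954 to 0.204. Over the CDS alone the RNAseq level of C1qb was 0.907 to 1.48 of that of C1qc and above it in 3 of 5 cultures, so the order of these 2 in RNAseq depends on the region counted, while C1qa stayed lowest.

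**Figure D2:**
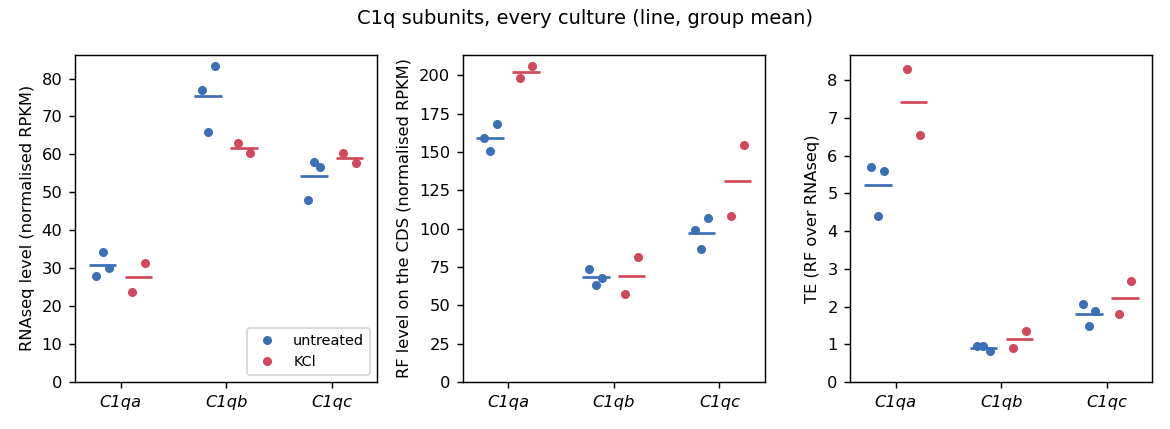
RNAseq level, RF level on the CDS (both normalised RPKM) and TE of C1qa, C1qb and C1qc in the 3 untreated cultures (blue) and 2 KCl cultures (red), with lines at group means. C1qb is highest in RNAseq and lowest in RF and TE in every culture, and C1qa the reverse.

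The footprints in the 5′UTR also differed among the subunits. Pooled over the untreated cultures, 11.3% of the C1qb footprints in 5′UTR and CDS together lay in the 5′UTR, as did 11.05% of those of C1qc and 1.76% of those of C1qa. The 5′UTR of C1qc holds 2 upstream AUGs, and those of C1qa and C1qb hold 0. Their 5′UTRs are 65 nt (C1qa), 166 nt (C1qb) and 223 nt (C1qc) long, beside CDS lengths of 735, 759 and 738 nt. Pooled in the same way, the share was 29.2% for P2ry6 (31 footprints in the 5′UTR, 3 upstream AUGs) and 18.4% for Cd53 (106 footprints, 1 upstream AUG), though in untreated culture 3 Spi1 (22.7%, 5 footprints) was level with P2ry6 (22.2%, 2 footprints). The 5′UTR of P2ry6 is 425 nt beside a CDS of 984 nt, and that of Cd53 is 199 nt beside 657 nt. The shares were not adjusted for length. Ctss (3 upstream AUGs) had a share of 2.63% and Tlr2 (5 upstream AUGs) 10.9%. No relation of the share to length or upstream AUGs was tested. P2ry6 is a receptor for extracellular UDP linked to phagocytosis. Its TE was the lowest of the 26 at 0.693 ± 0.238, from 6 to 39 footprints a library.

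At the other end stood Lyz2 (lysozyme, TE 18.2 ± 9.94), Cx3cr1 (10.2 ± 2.36), Mpeg1 (a pore-forming protein of phagosomes, 7.06 ± 0.297) and Ptprc (the leukocyte phosphatase CD45, 6.83 ± 4.53). For Lyz2 every RNAseq read lay on the CDS, so a whole-transcript length understates its RNA; over the CDS alone its TE was 6.13 ± 3.35. Lyz2 also has a close paralog, and reads that matched several places had been kept. Over the CDS alone the TE of Mpeg1 was 15.2 ± 6.97 and that of Fcgr3 was 6.30 ± 1.67 in place of 1.70 ± 0.112, and 80.2% of the Fcgr3 RNAseq reads lay in the 3′UTR. The order of members by TE therefore depends on the region counted, and Cx3cr1 kept a high value under both (9.19 ± 3.11 over the CDS).

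After KCl few of the microglia genes changed in RNAseq, and more of them gained footprints than lost them. By edgeR's quasi-likelihood test with Benjamini-Hochberg adjustment over 15652 transcripts, 1 of 26 members was higher in RNAseq (Fcgr3) and 3 were lower (Tmem119, Cd14 and Cx3cr1), where 25.0% of all transcripts were called, 13.5% higher and 11.6% lower. In RF, 8 of 26 members (30.8%) were higher and the same 3 were lower, where 33.7% of all transcripts were called, 17.7% higher and 16.0% lower. The share of members that were lower (11.5% in each assay) was not above that of all transcripts. The median log2 change of the 26 members was -0.06 in RNAseq and 0.31 in RF, beside -0.01 over all transcripts in both. In these bulk cultures, fewer microglia and less RNA per microglial cell cannot be told apart.

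Within the strict set of 7262 transcripts, 0 of 11 members were higher in RNAseq (2 at an unadjusted p under 0.05, 0 by DESeq2; 17.5% of all) and 1 was lower (15.7% of all, with 33.2% called in either direction). In RF 4 of 11 were higher (21.2% of all) and 1 was lower (19.8% of all, with 41.0% called in either direction). Both KCl cultures lay above all untreated cultures for 10 of the 26 members in RF and below them for 4, where 23.2% and 31.8% of all transcripts did so. In RNAseq the counts were 7 and 7 of 26, beside 20.3% and 28.9%. All levels, and so these counts, were scaled by the TMM factors of the strict set. The wider fit used its own factors, which raised log2 changes by a median of 0.07 in RNAseq and 0.06 in RF. Of the 11 members of the strict set, 4 lay above and 3 below in RNAseq (27.0% and 27.9% of all). In RF 5 and 1 did so (30.8% and 30.6% of all). Fcgr3 is among the 4 above and among the 2 at an unadjusted p under 0.05 in RNAseq. It entered the strict set only through the KCl cultures, so the filter favoured its place in both counts.

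**Figure D3:**
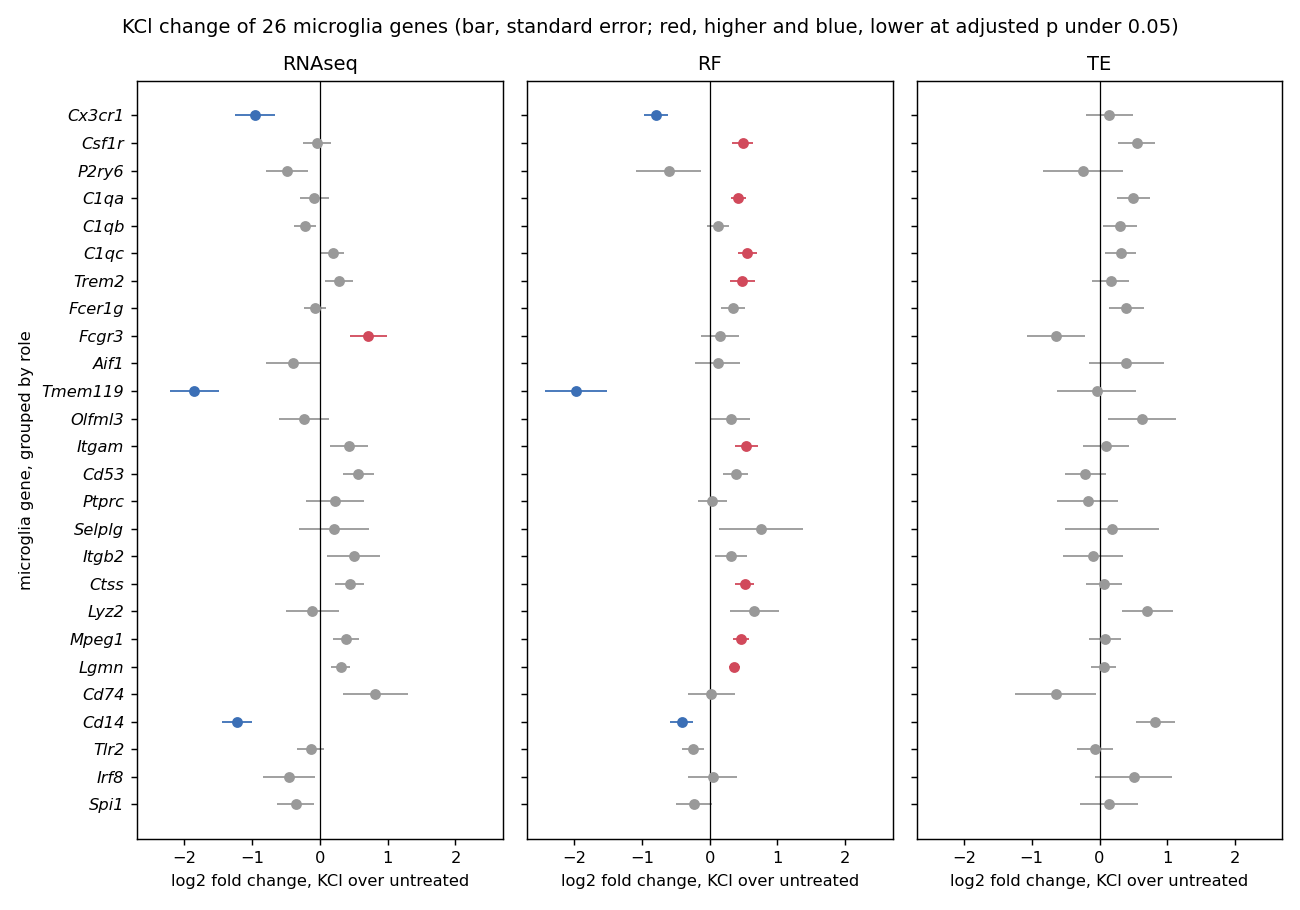
log2 fold change of KCl over untreated (x axis) with its standard error for 26 microglia genes grouped by role (y axis), in RNAseq, RF and TE, from the fit of 15652 transcripts. Tmem119, Cd14 and Cx3cr1 lie to the left in RNAseq and RF, 8 members lie to the right in RF, and none is coloured in TE.

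The gene that fell most was Tmem119, a membrane protein used as a marker of resident microglia (chr5:113793729-113800516, minus strand). Its RNAseq level was 7.15, 7.58 and 5.98 normalised RPKM in untreated cultures and 1.98 and 1.65 after KCl. Its RF level was 12.6, 8.50 and 11.4 and then 3.33 and 2.17. Both KCl cultures lay far below all untreated cultures in each assay. In RF, Tmem119 entered the wider set only through the untreated cultures. The filter therefore favoured its place among the genes that fell. The log2 change was -1.85 ± 0.36 (SE) in RNAseq (adjusted p = 4.9e-05) and -1.98 ± 0.46 in RF (adjusted p = 0.00062), the latter from 4 and 5 footprints in the KCl libraries. Without KCl culture 5 the RF call was lost (-1.61, adjusted p = 0.090).

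Cx3cr1, the receptor for the neuronal chemokine fractalkine (chr9:120048683-120068296, minus strand), fell in both assays. Its RNAseq levels were 5.08, 5.66 and 4.34 in untreated cultures and 1.78 and 3.10 after KCl (log2 change -0.96 ± 0.30 SE, adjusted p = 0.012). Its RF levels were 46.4, 48.9 and 56.2 and then 27.7 and 26.8 (-0.80 ± 0.18, adjusted p = 0.00029). The groups did not overlap in either assay. Leaving out KCl culture 4 ended the RNAseq call (-0.63, adjusted p = 0.28), whereas the RF call held without any 1 culture.

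Cd14, a co-receptor for bacterial lipopolysaccharide, fell more in RNA than in footprints. Its RNAseq levels were 24.7, 29.4 and 27.6 and then 8.91 and 13.2 normalised RPKM, and its RF levels were 46.3, 57.4 and 47.0 and then 40.1 and 33.9. The log2 change was -1.29 ± 0.22 (SE) in RNAseq (adjusted p = 8.5e-06 over 7262 transcripts) and -0.48 ± 0.17 in RF (adjusted p = 0.023). The RF call was lost by DESeq2 (adjusted p = 0.085), with no filter beyond 1 read (adjusted p = 0.052), without untreated culture 2 (adjusted p = 0.059) and without KCl culture 5 (adjusted p = 0.34). In the wider set (-0.41, adjusted p = 0.048) it was lost in 6 of 8 alternatives. Its TE was 1.87, 1.95 and 1.70 in untreated cultures and 4.51 and 2.58 after KCl, a log2 change of 0.83 ± 0.29 that did not pass the threshold (adjusted p = 0.062). Of its 5′UTR and CDS footprints, 10.3%, 11.6% and 6.67% lay in the 5′UTR in untreated cultures 1, 2 and 3, and 3.08% and 7.27% in KCl cultures 4 and 5, so the groups overlapped.

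Fcgr3, an activating receptor for immunoglobulin G that signals through Fcer1g, had RNAseq levels of 7.64, 9.46 and 9.48 and then 13.2 and 14.5. Its log2 change in RNAseq was 0.72 ± 0.28 (adjusted p = 0.047 over 15652 transcripts). That call was lost in 8 of 8 alternatives, leaving out any 1 culture among them. In the strict set the change was 0.65 ± 0.27 (adjusted p = 0.060). Fcgr3 entered that set only through the KCl cultures, so this value is no separate sign of a rise. In RF its levels were 12.01, 16.8 and 16.6 and then 12.2 and 17.8, so the groups overlapped (log2 change 0.09 ± 0.28, adjusted p = 0.82). It belongs to a family of similar receptors, so reads may be shared between members of that family.

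The largest rises in RF, of Selplg (0.76 ± 0.63) and Lyz2 (0.66 ± 0.36) in the wider set, did not pass (adjusted p = 0.39 and 0.23). Among the 8 members called higher in RF, each rise was below 0.6 on the log2 scale. In the strict set these were C1qa (0.36 ± 0.11, adjusted p = 0.010), C1qc (0.49 ± 0.14, adjusted p = 0.0079), Ctss (0.45 ± 0.14, adjusted p = 0.010) and Lgmn (0.30 ± 0.08, adjusted p = 0.0043). The values of C1qa and C1qc in every culture are given above, and both KCl cultures lay above all untreated ones in RF for each. C1qb did not follow (0.06 ± 0.16 in RF, adjusted p = 0.80), and the ratio of C1qb to C1qa in RF was 0.403 to 0.462 in untreated cultures and 0.289 and 0.394 after KCl (two-sided exact permutation test, p = 0.10, the smallest that 3 against 2 cultures allow; adjusted p = 0.15 over the 3 pairs). None of the 3 passed in RNAseq (-0.15 ± 0.21, -0.29 ± 0.16 and 0.12 ± 0.16 for C1qa, C1qb and C1qc).

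Both proteases of the lysosome that passed the strict filter gained footprints. Ctss, cathepsin S, which also trims the invariant chain during antigen presentation, had RF levels of 56.7, 52.3 and 61.2 and then 75.2 and 77.0. Lgmn had 288, 284 and 288 and then 354 and 351. In RNAseq Ctss had 18.1, 17.9 and 20.0 and then 26.3 and 22.0, and Lgmn had 54.4, 55.8 and 52.6 and then 59.7 and 67.9. For both genes the KCl cultures lay above all untreated cultures in RNAseq too, but the log2 changes of 0.37 ± 0.21 and 0.23 ± 0.14 did not pass (adjusted p = 0.19 and 0.22).

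A further 4 members gained footprints in the fit of 15652 transcripts. Mpeg1 had RF levels of 51.9, 61.3 and 58.3 and then 80.0 and 71.1 (0.46 ± 0.11, adjusted p = 0.0011). Csf1r, the receptor for Csf1 and Il34, had 15.5, 19.3 and 16.8 and then 23.6 and 22.7 (0.48 ± 0.15, adjusted p = 0.0097), with RNAseq levels of 7.34, 9.10 and 6.25 and then 5.88 and 8.03 (-0.05 ± 0.21, adjusted p = 0.90). Itgam, the integrin chain CD11b, had RF levels of 10.1, 8.39 and 8.30 and then 13.9 and 11.8 (0.54 ± 0.17, adjusted p = 0.013). Trem2, a lipid-sensing receptor that needs an adaptor with an activating motif, had 59.1, 44.0 and 68.2 and then 87.3 and 63.2, so its groups overlapped (0.48 ± 0.18, adjusted p = 0.033, and 0.42 ± 0.19, adjusted p = 0.076, in the strict set). Its RNAseq levels were 31.2, 26.2 and 36.1 and then 30.4 and 41.5 (0.21 ± 0.20, adjusted p = 0.46 in the strict set). For Csf1r, Mpeg1 and Itgam both KCl cultures lay above all untreated ones. The RF call was lost without KCl culture 4 for Csf1r (adjusted p = 0.085), Trem2 (adjusted p = 0.44) and Itgam (adjusted p = 0.17), without untreated culture 1 (adjusted p = 0.073) or KCl culture 5 (adjusted p = 0.091) for Csf1r, without untreated culture 2 for Trem2 (adjusted p = 0.12) and without KCl culture 5 for Itgam (adjusted p = 0.050).

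**Figure D4:**
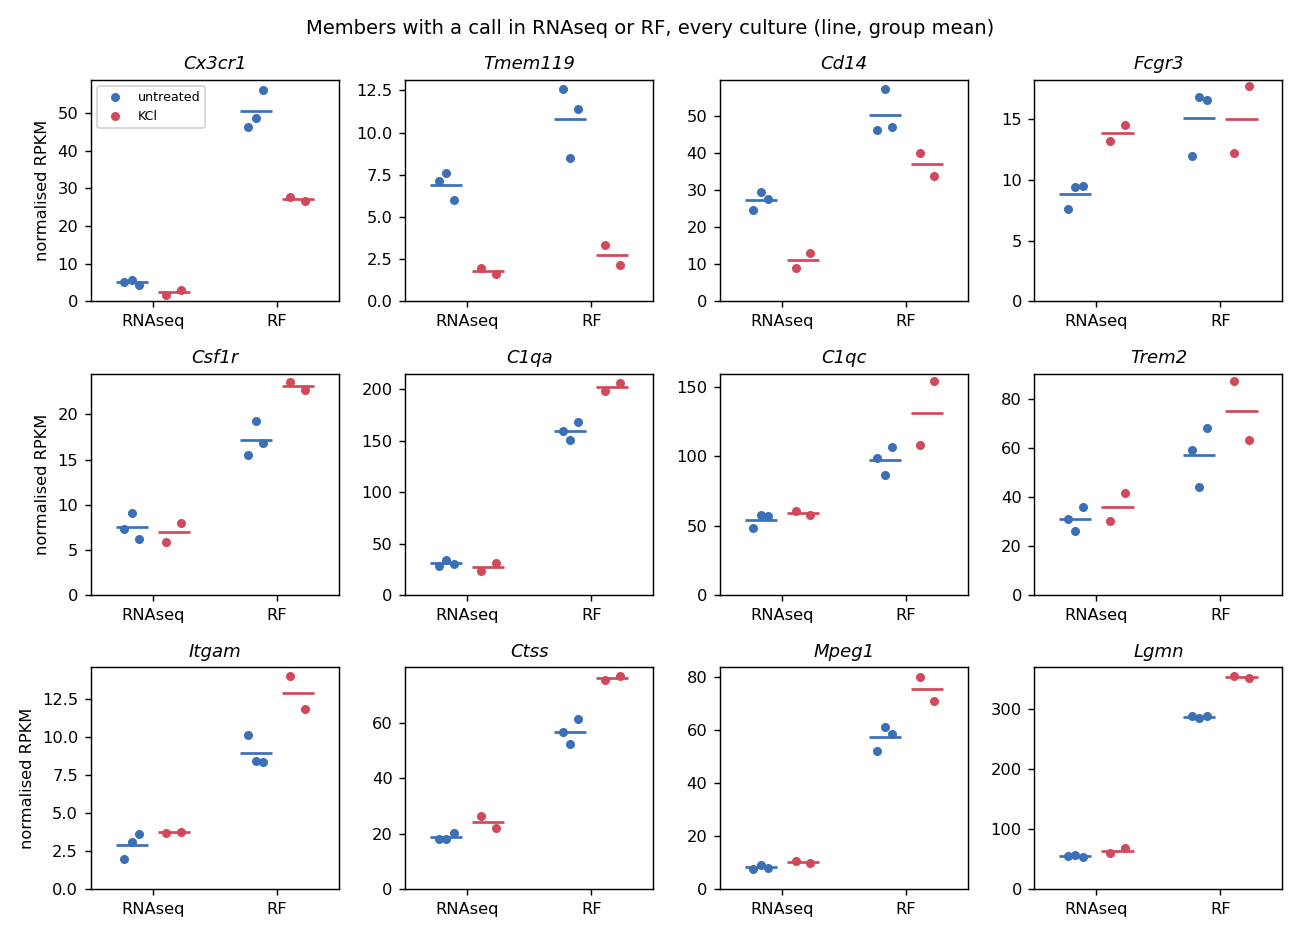
Normalised RPKM (y axis, from 0) in RNAseq and in RF for the 12 members with a call in either assay, 1 point per culture (blue, 3 untreated; red, 2 KCl) and lines at group means. Tmem119, Cx3cr1 and Cd14 fall in both assays, and the lower 2 rows show the 8 members that were higher in RF, with the groups of Trem2 overlapping.

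The rises in RF were small enough to depend on scaling. Taking library totals in place of TMM lowered the median log2 change of all transcripts by 0.14 in RNAseq and by 0.17 in RF in the wider set (shifts of -0.14 and -0.17), and then 3 of 26 members were higher in RF (C1qc, Ctss and Mpeg1) and 4 lower. DESeq2 called 5 higher and 2 lower. Leaving out KCl culture 5 ended the RF calls of C1qa (adjusted p = 0.14), C1qc (0.17 on the log2 scale, adjusted p = 0.58), Ctss (adjusted p = 0.13) and Lgmn (adjusted p = 0.074) in the strict set, and leaving out KCl culture 4 ended those of Ctss (adjusted p = 0.056), Lgmn (adjusted p = 0.064) and Mpeg1 (wider set, adjusted p = 0.061).

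The transcription factors did not pass in either direction. Spi1 had RNAseq levels of 9.22, 8.20 and 8.48 and then 6.09 and 6.70, and RF levels of 18.3, 18.1 and 15.4 and then 14.6 and 14.3. Both KCl cultures lay below all untreated ones in each assay, but the log2 changes were -0.36 ± 0.28 (adjusted p = 0.37) and -0.24 ± 0.27 (adjusted p = 0.53). Irf8, with 6 to 51 footprints a library, overlapped between groups in both assays.

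PU.1 binds purine-rich sites with a GGAA core. Of the 35 members, 24 matched a RefSeq promoter (GRCm38.p6, 250 bases before to 50 after the start). The letters GAGGAAGT, searched on both strands, occurred in 4 of the 24 (16.7%) and in 3.69% of 27025 genes, and the shorter GAGGAA, which overlaps it, in 13 of 24 (54.2%) and 31.3% of genes. The 4 stretches with the longer match are shown because they are the members' own sequence at the letters that Spi1 is known for; capitals mark the match, which lay on the opposite strand in each.
Ctss, chr3:95526773-95526802: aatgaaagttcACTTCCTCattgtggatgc
Cd53, chr3:106790125-106790154: cactcagtctcACTTCCTCactcttctcgc
Apbb1ip, chr2:22774321-22774350: gggctcaaagcACTTCCTCctccctgagcc
C1qc, chr4:136893091-136893120: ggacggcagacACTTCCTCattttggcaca
The match began 2 bases before the start of Ctss and 195 before that of C1qc. A match is a description of letters, and binding was not measured.

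The remaining members were described by their ranges. Aif1 (Iba1, an actin-binding protein and a standard stain for microglia) had RNAseq levels of 8.22, 6.81 and 10.6 and then 5.25 and 7.04 and RF levels of 14.4, 20.5 and 23.4 and then 17.5 and 19.9, with neither change past the threshold (-0.39 ± 0.41 and 0.12 ± 0.33). Fcer1g and Tlr2 (a receptor for bacterial lipoproteins) did not pass in either assay. The 5 measured genes of adhesion and the leukocyte surface (Itgam, Cd53, Ptprc, Selplg and Itgb2) had log2 changes of 0.21 to 0.57 in RNAseq and 0.04 to 0.76 in RF, and Itgam in RF was the 1 call among them. Cd53, a tetraspanin, had the largest of these in RNAseq, at 0.50 ± 0.22 in the strict set (adjusted p = 0.078). P2ry12, the receptor through which microglial processes follow extracellular ADP, had 2 to 8 RNAseq reads and 6 to 26 footprints a library and was not tested. Its RNAseq levels were 1.08, 0.809 and 0.284 and then 0.989 and 0.884 normalised RPKM, with overlapping groups. Slc2a5, a fructose transporter, had at most 3 reads in any library.

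No member changed in TE past the threshold. The SE of the members' log2 TE changes in the wider set ran from 0.18 (Lgmn) to 0.70 (Selplg), so modest changes could be missed. The interaction test of edgeR with the culture as a block gave 0 of 26 members (3 at an unadjusted p under 0.05, all higher; 0 by DESeq2), where 2.92% of 15652 transcripts were called, 0.792% higher and 2.13% lower. In the strict set it gave 0 of 11 (2 at an unadjusted p under 0.05; 0 by DESeq2), where 5.8% of 7262 were called, 1.67% higher and 4.13% lower. Both KCl cultures lay above all untreated ones in TE for 4 of 26 members and below for 1 (14.5% and 16.0% of all), and for 2 and 1 of the 11 (16.7% and 17.5% of all). The 1 below was Fcgr3, which entered the strict set only through the KCl cultures. There the filter favoured a higher RNAseq level after KCl, and so a lower TE. The median log2 TE change was 0.17 over the 11 members and 0.03 over all transcripts of that set.

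Among other genes of microglia and macrophages, outside the 35, all RNAseq calls were downward. Of 64 such genes 40 were tested among the 15652, with 7 lower and 0 higher in RNAseq (2 higher at an unadjusted p under 0.05; 0 by DESeq2) and 6 lower and 3 higher in RF. Over all 15652 transcripts 11.6% were lower and 13.5% higher in RNAseq, and 16.0% and 17.7% in RF. P2rx7, an ATP-gated channel, changed by -1.18 ± 0.26, Ncf1, a subunit of the phagocyte oxidase, by -1.03 ± 0.34, and C5ar1, the receptor for complement C5a, by -1.02 ± 0.23. The median over the 40 was -0.13 in RNAseq and 0.03 in RF.

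Among 8 ligands of member receptors, Csf1, which binds Csf1r, fell in both assays. Its RNAseq levels were 52.8, 62.3 and 59.6 and then 22.0 and 23.9 normalised RPKM (-1.27 ± 0.15), and its RF levels were 104, 129.8 and 109.9 and then 57.9 and 58.8 (-0.91 ± 0.12). Apoe, a lipid carrier that Trem2 binds, did not pass in RNAseq (0.09 ± 0.14) but rose in RF (0.55 ± 0.08) and in TE (0.48 ± 0.15, adjusted p = 0.043 over 15652 transcripts). In the strict set the TE change of Apoe did not pass (adjusted p = 0.057), and DESeq2 and library totals each called 0 of these ligands in TE.

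Genes of activation and phagocytosis, a list that also holds Apoe, gained footprints. Of 14 tested, 10 were higher and 0 lower in RF (13 higher and 0 lower at an unadjusted p under 0.05; 8 higher and 0 lower by DESeq2), and 5 were higher and 1 lower in RNAseq, with a median of 0.42 in RF. The shares over all 15652 transcripts were 17.7% higher and 16.0% lower in RF, and 13.5% and 11.6% in RNAseq. Ctsl, cathepsin L, had RF levels of 583, 586 and 580.2 and then 953 and 973 (0.79 ± 0.08), and RNAseq moved alike (0.82 ± 0.13). Cd9 (0.75 ± 0.14) and Npc2 (0.56 ± 0.14) were higher in RNAseq, while Spp1, osteopontin, was lower (-0.63 ± 0.15) with a higher TE (0.68 ± 0.18, adjusted p = 0.012). Fth1, the ferritin heavy chain, whose translation is controlled by iron, had RF levels of 59.1, 66.3 and 45.9 and then 169 and 172 with RNAseq values that overlapped, and its TE rose by 1.59 ± 0.19 on the log2 scale. These genes are used by astrocytes and other cells as well, so their source among the cells cannot be told apart.

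Inflammatory mediators had the lowest median of the lists compared. Of 13 tested, 6 were lower and 3 higher in RNAseq, with a median log2 change of -0.98. In RF 9 were lower and 3 higher. The shares over all 15652 transcripts were 11.6% lower and 13.5% higher in RNAseq, and 16.0% and 17.7% in RF. Ccl2, a monocyte chemokine, fell from 116, 176 and 214 to 19.5 and 19.6 normalised RPKM in RNAseq (-3.04 ± 0.22), Ccl7 changed by -2.98 ± 0.28 and Il1b by -2.59 ± 0.65. Il1b and some other genes that fell entered the wider set only through the untreated cultures, which favours lower values after KCl. Ptgs2, which makes prostaglandins and is induced by neuronal activity, rose from 0.883, 1.02 and 1.51 to 7.71 and 7.27 (2.78 ± 0.29).

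**Figure D5:**
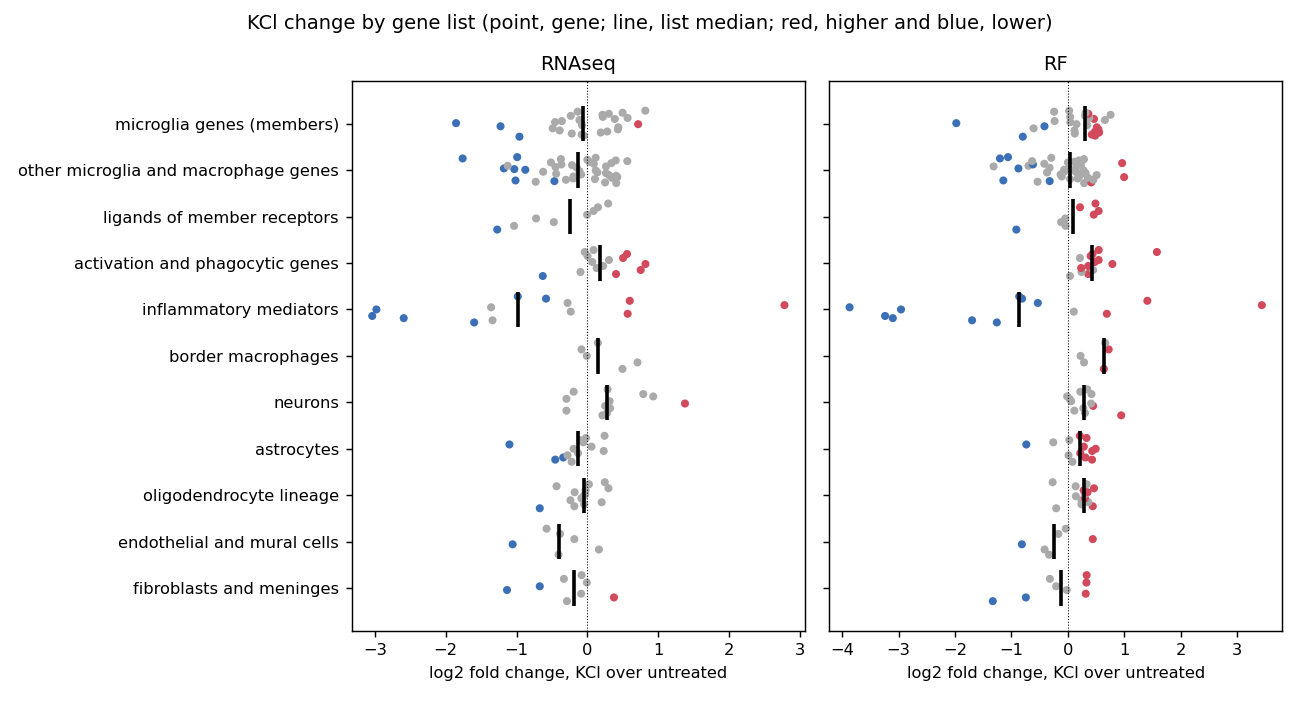
log2 fold change of KCl over untreated (x axis) in RNAseq and RF for each tested gene (point) of the microglia genes and of 10 other lists (y axis), with a line at the list median, from the fit of 15652 transcripts; red points are higher and blue points lower at an adjusted p under 0.05. The inflammatory mediators have the lowest medians, and the activation and phagocytic genes lie to the right in RF.

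The label of the 35 genes was checked against lists for other cells. Of 10 genes of monocytes and neutrophils 4 had counts, with at most 6 reads in any library. Of 10 genes of border macrophages 8 had counts, with a summed level of 88.7 to 103 TMM-scaled CPM in untreated RNAseq libraries and 96.0 to 111 after KCl. In RF they had 354 to 387 and then 509 to 539. Of 5 tested, 2 (Mrc1 and Stab1) were higher in RF, where 17.7% of all 15652 transcripts were. Stab1 was higher in TE (0.78 ± 0.21, adjusted p = 0.018) but was not called by DESeq2. Border macrophages express many of the 35 genes too, and their part in the members' values was not tested.

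The summed level of the 31 members with counts was 737 to 772 TMM-scaled CPM in untreated RNAseq libraries and 689 to 762 after KCl. In RF it was 1309 to 1380 and then 1555 to 1562. The members' RF sums did not overlap, and their RNAseq sums did. Astrocyte RF sums also rose without overlap (17273 to 18167 and then 18603 to 19181), as did those of the oligodendrocyte lineage (1511 to 1719 and then 1738 to 1885). The same held for other microglia genes, ligands, activation genes and border macrophages. RF sums fell without overlap for inflammatory mediators and fibroblasts, and overlapped for neuronal, endothelial and monocyte lists. All these sums were scaled by TMM. Library totals in place of TMM shifted RF changes by -0.10 in the strict set, and the sums were not retaken with them. Whether the small rises of the astrocyte and oligodendrocyte sums hold under that scaling was not tested. Other lists stood beside the members as follows. Astrocyte genes (13 of 15 tested) summed to 11890 to 12575 and then 10056 to 10393 in RNAseq, with 3 lower (Sox9, Aqp4 and Slc1a3), and in RF 8 were higher and 1 lower. Aqp4 (0.88 ± 0.16) and Slc1a3 (0.65 ± 0.16) rose in TE.

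Neuronal genes had 12 of 15 tested, with 1 higher in RNAseq (Gad1, 1.38 ± 0.34) and 2 higher in RF (0 by DESeq2 and 1 with library totals). They summed to 502 to 691 and then 619 to 634 in RNAseq. Genes of the oligodendrocyte lineage had 14 of 15 tested, with 1 lower in RNAseq (Pdgfra, -0.67 ± 0.18) and 5 higher in RF (2 by DESeq2 and 1 with library totals). They summed to 1722 to 1831 and then 1657 to 1664 in RNAseq. Endothelial and mural genes had 6 of 15 tested, with 1 lower in RNAseq (Pdgfrb, -1.06 ± 0.29), and summed to 155 to 169 and then 119 to 122. Genes of fibroblasts and meninges had 8 of 10 tested and summed to 1103 to 1314 and then 1054 to 1162 in RNAseq. Lum (-1.14 ± 0.37) and Pdgfra were lower and Col3a1 (0.38 ± 0.14) was higher in RNAseq. The Col3a1 rise was not called in the strict set, by DESeq2 or with library totals. Col1a1 (-1.05 ± 0.17) and Col3a1 (-1.10 ± 0.19) were lower in TE, where DESeq2 called only 1 gene of the list lower. The median log2 change in RF was 0.22 for the astrocyte list, 0.29 for the neuronal and the oligodendrocyte lists and 0.31 for the microglia genes, and no difference between lists was tested.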

How the data were processed

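Read counts per transcript region (5′UTR, CDS, 1 region not named in the sources used here, and 3′UTR) were deposited by the authors as raw counts, after trimming (Trimmomatic 0.32), removal of rRNA reads with STAR 2.3.1z8, alignment with Bowtie2 2.2.2 to a non-redundant Ensembl transcriptome of mm10, and counting with bedtools 2.20.1; multi-mapped reads were kept. Of 22534 transcripts, 98.39% matched the GENCODE annotation of GRCm38. RNAseq counts were summed over regions, and RF counts were those on the CDS. The 35 members and all gene lists were chosen with earlier results of these data known. Genes were named by a fixed rule: members with an adjusted p under 0.05 (up to the 12 with the largest changes) and 10 defining members, and of each other list up to 4 called in RNAseq and any called in TE. One gene that this rule would name is not reported here.

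KCl and untreated cultures were compared with edgeR 4.0.16 (quasi-likelihood, robust, TMM within an assay, Benjamini-Hochberg over all transcripts tested); the TE test was an interaction with the culture as a block. SE was taken as the log2 change over the square root of F. RNAseq and RF libraries of the same number came from 1 lysate, by the study's methods. Their deviations from the group means correlated at -0.07 to 0.06 (untreated) and 0.02 (KCl). Tests were run on simulated data first. Summed list levels are TMM-scaled CPM. Alternatives were DESeq2 1.42.0, other scalings, filters and regions, and leaving out each culture.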

Additional observations from a re-analysis of the deposited data

How the results depend on the processing

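The counts of members called moved with the transcripts tested, the scaling and the tool. Starting from the strict set, filterByExpr gave 1 rise and 3 falls (RNAseq) and 8 rises and 3 falls (RF); no filter beyond 1 read gave 3 falls (RNAseq) and 9 rises and 2 falls (RF); 1 fit of all 10 libraries gave 2 higher in RNAseq; library totals gave 2 higher in RF; and DESeq2 gave 0 lower in RF. Starting from the wider set (alternatives chosen after seeing the data), DESeq2 gave 0 higher in RNAseq and 5 higher in RF, and library totals gave 0 and 3. Leaving out 1 culture gave, in the strict set, 0 rises and 1 fall (RNAseq) and 1 to 4 rises and 0 to 2 falls (RF), and in the wider set 0 to 1 and 2 to 3 (RNAseq) and 3 to 8 and 1 to 3 (RF). TE gave 0 members under every alternative run, the fit with no replicate block included.

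The median RNAseq level of the 11 members (30.7 normalised RPKM) was 22.3 over the CDS and 7.68 over the members with at least 1 read in every library, and 28.7 to 31.2 without 1 untreated culture. The median TE (1.84) was 2.77 over the CDS, where that of all transcripts of the strict set was 2.31, 2.68 over the members with a read in every library, and 1.83 to 1.91 without 1 untreated culture. Among the changes recomputed, signs turned only where none had passed: C1qa in RNAseq (0.22 on the CDS; -0.37 to 0.032 without 1 culture, positive without KCl culture 4; in the wider set 0.014 without untreated culture 2 and 0.10 without KCl culture 4), Csf1r in RNAseq (0.12 without untreated culture 2, 0.16 without KCl culture 4), Trem2 in RNAseq (-0.035 to 0.41, negative without KCl culture 5), C1qb in RF (-0.045 with library totals in both sets; -0.26 to 0.25 without 1 culture and -0.19 in the wider set, negative without KCl culture 5) and Aif1 in RF (-0.050 with library totals, -0.11 without untreated culture 1). The cause was not tested. RF depth, 1463654 reads in the shallowest library, limits what can be said of the rarer members.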
